A study of Drosophila melanogaster with 2 samples.

Results

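Yolk protein and lipoprotein genes encode abundant secreted proteins of the insect fat body, an organ that combines functions of liver and adipose tissue. The 8 genes described here were chosen by name: the yolk protein genes Yp1, Yp2 and Yp3, the lipoprotein genes apolpp and Apoltp, the lipid loading gene Mtp, the larval storage protein gene Lsp2 and the fat body gene Fbp1. Reads were summed over the RefSeq transcript accessions of each gene, and 7 of the 8, among 11256 genes in all, had reads, each on 1 accession. The 11256 include 569 RefSeq transcripts that matched no gene, each counted as a gene of its own. Fbp1, which encodes the receptor for larval serum proteins, had no listed value under its 3 annotated accessions and is not analysed here; whether reads shared by isoforms were left out of the counts was not tested.

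RNA came from heads of Canton-S females, a wild-type strain of Drosophila melanogaster, at 3 to 5 days of adult age. Flies of the ethanol group breathed ethanol vapour for 15 min, until they were sedated, and recovered in air free of ethanol for 30 min. Control flies spent the whole 45 min in air free of ethanol. One pool of about 180 flies and 1 library stand for each group. Differences are therefore between those libraries, without a check between replicates and without p-values, and all intervals are 95% intervals for counting error alone.

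Yolk proteins are secreted into the hemolymph by the female fat body and by follicle cells of the ovary, and oocytes take them up through the receptor Yolkless. In flies they are relatives of lipases and not of vertebrate vitellogenins. Fat body also lies in the head, around the brain, so these transcripts can be found in head RNA without any ovary present. The source of the reads in these libraries was not tested. The apolpp product is cut into apolipophorins I and II, the protein scaffold of lipophorin, which carries lipid between organs. Apoltp encodes the scaffold of the lipid transfer particle, which moves lipid onto lipophorin, and Mtp, the microsomal triglyceride transfer protein, loads lipid onto both scaffolds as they are made. Lsp2 encodes a hexamerin, a storage protein best known from the larva and also made in adults.

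The ethanol library held 2635112 reads of the yolk protein genes and 8392534 other assigned reads. The control library held 2887191 and 8876031. The RNA integrity number, a scale of how intact the RNA is, was 6.40 in the ethanol sample and 6.80 in the control sample. Levels are given as RPKM, reads scaled by transcript length and by the library's total, which allow genes of unlike length to be compared. Ratios are shares of ethanol reads over shares of control reads. Genes were measured where the libraries held 50 or more reads between them, and called where the ratio was at least 2-fold in either direction with an interval that excluded 1.

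All 7 genes with reads passed the floor of 50 reads, and 0 were called higher and 0 lower. Of the 7822 genes measured, 1.75% were called higher and 0.741% lower, or 2.49% in either direction. That is 137 genes higher and 58 lower; after the trend of the ratio on level was taken out, it was 103 and 78. Whatever the size of the ratio, the interval lay below 1 for 6 of the 7 and above 1 for 0, against 15.0% and 23.9% of all measured genes. Among the 2479 genes with at least 1000 reads, a floor that all 7 passed, the interval lay below 1 for 25.3% and above 1 for 31.8%. The 7 held from 3440 (Mtp) to 2380264 reads (Yp1) over both libraries, and intervals narrow as reads rise. These shares are therefore not matched to the depth of the 7. The median log2 ratio of the 7 was -0.055, against 0.049 over all measured genes and 0.022 over those with at least 1000 reads. Where less of a transcript was found in these pools, fewer cells of a type and less RNA per cell cannot be told apart.

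The yolk protein genes held the first 3 places of both libraries by reads and by RPKM. Yp1 (NM_078548) had 1129220 reads in ethanol heads and 1251044 in control heads. Its level was 65222 RPKM in ethanol heads and 67740 RPKM in control heads, and it took 10.2% of ethanol reads and 10.6% of control reads. Yp3 (NM_078593), with 832582 ethanol and 904841 control reads, stood at 50705 RPKM in ethanol heads and 51660 RPKM in control heads. Yp2 (NM_078547), with 673310 ethanol and 731306 control reads, stood at 39315 RPKM in ethanol heads and 40031 RPKM in control heads. The order Yp1, Yp3, Yp2 was thus the same in both libraries, with no overlap of counting intervals between neighbours. The next gene by reads, the photoreceptor rhodopsin gene ninaE, had 25691 RPKM in ethanol heads and 29076 RPKM in control heads. Reads covered between 99.48% and 99.87% of each yolk protein transcript.

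**Figure D1:**
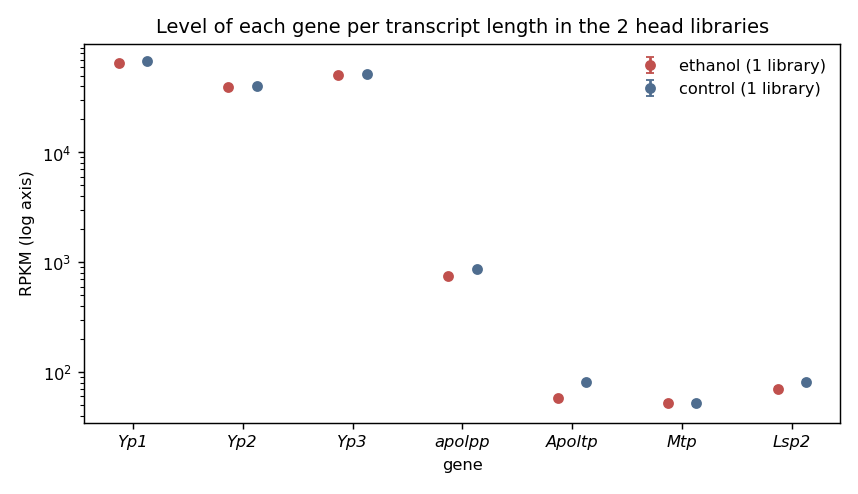
RPKM (log axis) of the 7 genes with reads, with the ethanol library left of the control library for each gene. Bars are exact Poisson 95% intervals and are mostly smaller than the points; the yolk protein genes lie between 39315 and 67740 RPKM and the next gene, apolpp, lies at 746 RPKM in ethanol heads and 871 RPKM in control heads.

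All 3 yolk protein genes were slightly lower after ethanol, by an amount that is small beside the spread among genes. The log2 ratio was -0.055 for Yp1 (interval -0.058 to -0.051), -0.026 for Yp2 (-0.031 to -0.021) and -0.027 for Yp3 (-0.031 to -0.023). Summed, they took 23.9% of ethanol reads (exact binomial interval 23.87% to 23.92%) and 24.5% of control reads (24.52% to 24.57%), a log2 ratio of -0.039. Of the genes with at least 1000 reads, 77.9% had a larger log2 ratio in absolute size than Yp1, 88.7% than Yp2 and 88.3% than Yp3. The SD of the log2 ratio over those genes was 0.27. The sum stayed below 0 with each of the 4 other scalings, between -0.10 and -0.051, whereas Yp2 and Yp3 alone came to 0.0011 and 0.0031 when the trend on level was removed.

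The proportions of the yolk protein transcripts to one another were nearly constant, and these proportions do not depend on how the libraries are scaled. Yp1 made up 42.0% of the summed yolk protein RPKM in ethanol heads and 42.5% in control heads. Yp3 made up 32.7% in ethanol heads and 32.4% in control heads, and Yp2 25.3% in ethanol heads and 25.1% in control heads. The RPKM ratio of Yp2 to Yp3 was 0.775 in both libraries (log2 change 0.00087, interval -0.0056 to 0.0073). Yp1 was lower relative to Yp2 (RPKM ratio 1.66 in ethanol heads and 1.69 in control heads, log2 change -0.029, -0.035 to -0.023) and relative to Yp3 (1.29 and 1.31, -0.028, -0.033 to -0.022). These changes lie outside counting error.

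Yp1 and Yp2 are neighbours on the X chromosome, on opposite strands and pointing away from each other, with no other protein-coding gene between them. Yp3 lies elsewhere on the X chromosome, between Rtc1 and rdgB. An annotated antisense RNA gene, asRNA:CR45601, overlaps Yp1 on the other strand, and the use of strand in the counting was not given in the sources used here. No reads were listed under that antisense gene. The positions of genes relative to each other were taken from the BDGP6 annotation, while the reads were assigned on BDGP5. Yp2 and Yp3, which are not neighbours, had the closest pair of ratios among the 7 genes.

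Both lipoprotein scaffold genes were lower in ethanol heads, and of the 7 genes Apoltp had the lowest ratio. Apoltp (NM_205948, chromosome arm 2L) had 8418 reads or 57.4 RPKM in ethanol heads and 12643 reads or 80.8 RPKM in control heads, a ratio of 0.710 (interval 0.691 to 0.730, log2 -0.49). It ranked 136 by reads in ethanol heads and 106 in control heads. Among genes with at least 1000 reads, 1.86% had a lower ratio than Apoltp and 11.7% a lower ratio than apolpp. apolpp (NM_079895, chromosome 4) had 84619 reads or 746 RPKM in ethanol heads and 105354 reads or 871 RPKM in control heads, a ratio of 0.857 (0.849 to 0.865, log2 -0.22). It ranked 6 by reads in both libraries but 138 in ethanol heads and 119 in control heads by RPKM, because its transcript of 10281 nt yields many reads. Neither difference reached 2-fold.

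Mtp, whose product loads lipid onto these scaffolds, did not differ beyond counting error. Mtp (NM_136231, chromosome arm 2L) had 1673 reads or 52.2 RPKM in ethanol heads and 1767 reads or 51.7 RPKM in control heads. Its ratio was 1.01 with an interval that included 1 (0.944 to 1.08), so a difference within that interval was not detectable at this depth. Its log2 ratio (0.014) was below 0 in 5 of 9 alternatives, with median-of-ratios scaling lowest (-0.050), all within its interval. The RPKM order was the same in both libraries, but the gaps differed in its lower part. In ethanol heads Lsp2 (70.1 RPKM) was followed by Apoltp (57.4) and Mtp (52.2) with no overlap of neighbouring intervals, while in control heads Lsp2 (81.2) and Apoltp (80.8) overlapped and Mtp (51.7) lay below both.

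**Figure D2:**
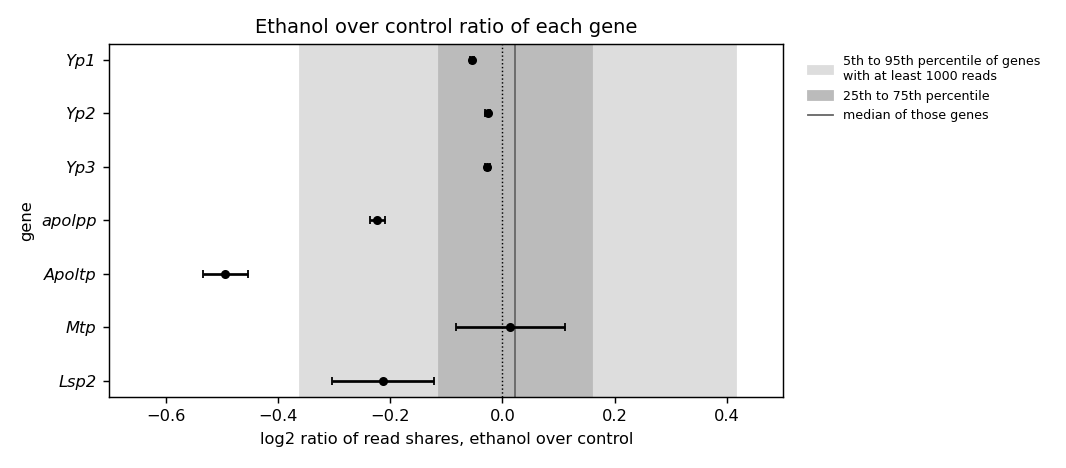
Log2 ratio of ethanol over control read shares for the 7 genes with reads; bars are Clopper-Pearson 95% intervals for counting error, and grey bands give the spread over genes with at least 1000 reads. The yolk protein genes and Mtp lie inside the inner band, apolpp (-0.22) and Lsp2 (-0.21) in the outer band only, and Apoltp (-0.49) below both.

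Within each library the lipoprotein genes could be set against each other without any library scaling. Numbers of transcripts per transcript given here are ratios of RPKM and not counts of molecules. There were 13.0 apolpp transcripts per Apoltp transcript in ethanol heads and 10.8 in control heads (log2 change 0.27, interval 0.23 to 0.31). Per Mtp transcript there were 14.3 apolpp transcripts in ethanol heads and 16.8 in control heads (log2 change -0.24, -0.33 to -0.14). Per apolpp transcript there were 52.7 Yp2 transcripts in ethanol heads and 46.0 in control heads (log2 change 0.20, 0.18 to 0.21). Per Mtp transcript there were 1.10 Apoltp transcripts in ethanol heads and 1.56 in control heads (log2 change -0.51). This was the largest change in size among the 21 pairs, but its size depends on the trend on transcript length. After that trend was removed, the log2 ratio was 0.0052 for Apoltp and -0.0036 for Mtp. With the trend on transcript length removed, the change of apolpp over Mtp was 0.18 and that of Yp2 over apolpp -0.28, so both directions depend on that correction. Of the 21 pairs among the 7 genes, the interval of the change excluded 0 for 16 and included 0 for 5. Those 5 were Mtp with each yolk protein gene, Yp2 with Yp3, and apolpp with Lsp2. Per Lsp2 transcript there were 10.6 apolpp transcripts in ethanol heads and 10.7 in control heads. After the length trend was removed, the log2 change of apolpp over Lsp2 was 0.43. Sharing of reads between genes by similar sequence was not tested.

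Both lipoprotein scaffold genes have very long transcripts, 10281 nt for apolpp and 13308 nt for Apoltp, and long transcripts as a class were lower in the ethanol library. Leaving the 7 out, the genes with at least 1000 reads had a median log2 ratio of 0.095 below 1 kb (508 genes) and 0.074 from 1 to 2 kb (812 genes). It was 0.0022 from 2 to 4 kb (776 genes), -0.16 from 4 to 8 kb (317 genes) and -0.38 at 8 kb and over (59 genes). In the longest class 96.6% of genes lay below 0. The RNA integrity number moved with this, being lower in the ethanol sample, and its part in the result was not tested.

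Set against genes of like length, the members took different places than against all genes. For each gene, the comparison took genes with at least 1000 reads and a length between 0.8 and 1.25 times its own, a choice made after the ratios had been seen. Apoltp lay in the middle of its class, above 9 and below 11 of 20 genes whose median was -0.47. apolpp lay above 35 and below 8 of 43 genes whose median was -0.37, so it was 0.15 higher than that median. With the trend on length removed, the log2 ratio was 0.17 for apolpp and 0.0052 for Apoltp, so the direction of both depends on that correction.

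**Figure D3:**
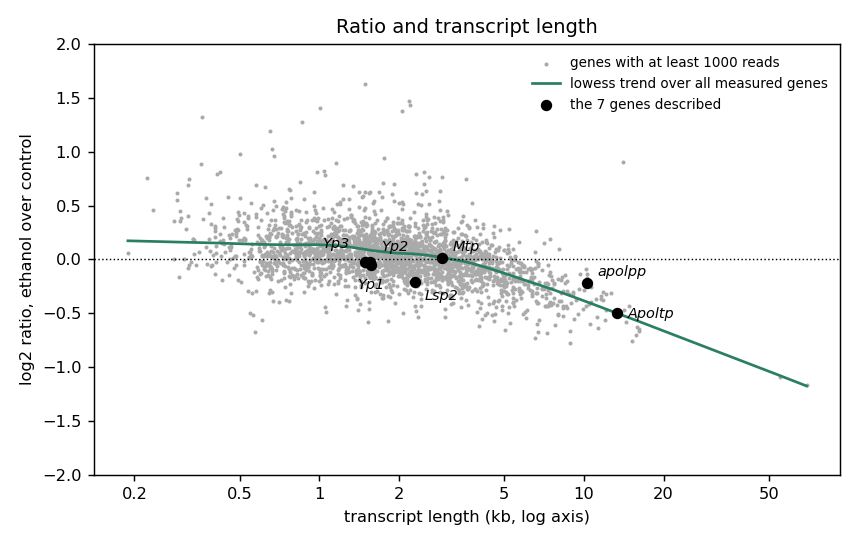
Log2 ratio of ethanol over control against transcript length (kb, log axis) for genes with at least 1000 reads (grey), with the lowess trend over measured genes and the 7 genes described in black; 6 genes beyond a log2 ratio of 2 are not drawn. The trend is near 0 at the length of Mtp and falls with length, Apoltp lies on it, apolpp lies above it, and Lsp2 and the yolk protein genes lie below it.

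Lsp2 and the yolk protein genes lay on the low side of their length classes. Lsp2 (NM_080077, chromosome arm 3L) had 1781 reads or 70.1 RPKM in ethanol heads and 2202 reads or 81.2 RPKM in control heads, a ratio of 0.863 (interval 0.810 to 0.919, log2 -0.21). Of 593 genes of like length, 39 had a lower ratio and 554 a higher one, with a median of 0.030. The Lsp2 log2 ratio was between -0.28 and -0.21 under all 9 alternatives of scaling, summing, pseudocount and trend. For Yp1, 141 of 571 genes of like length had a lower ratio, for Yp2 169 of 559 and for Yp3 156 of 543, with class medians of 0.068 to 0.072. Mtp lay near the middle of its class, above 272 and below 214 genes. An annotated antisense gene, asRNA:CR11538, overlaps Lsp2, and the gene Zyx overlaps apolpp on the other strand with 40 reads in ethanol heads and 14 in control heads.

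Among the most abundant genes outside the yolk protein family the ratios had no common direction. The 10 genes with most reads, apolpp among them, had log2 ratios from -0.22 to 0.28 with a median of -0.022, 5 below and 5 above the yolk protein sum. The 3 nearest to the sum were the ribosomal protein genes RpLP0 (-0.096) and RpL4 (-0.10) and the visual arrestin gene Arr2 (0.052). Since the pattern of a gene over 2 libraries is a single ratio, nearness here says only that the ratios were of like size.

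Receptors that take up yolk and lipoproteins belong mostly to the LDL receptor family. Of 10 listed genes 5 were measured, and 0 were called, with intervals below 1 for 3 and above 1 for 1 (median log2 ratio -0.58). That median was -0.052 with the length trend removed, -0.28 with a floor of 20 reads and 0.019 with a floor of 1 read. The 3 were mgl, which encodes megalin (1694 reads in ethanol heads and 3062 in control heads, -0.76), Cubn, which encodes cubilin (115 and 186 reads, -0.60), and LRP1 (785 and 1254 reads, -0.58). Their transcripts measure 15265, 11349 and 14423 nt, the range in which most genes were lower. The short transcript of boca (704 nt), a chaperone that helps LDL receptor family proteins fold, had 515 reads in ethanol heads and 415 in control heads (0.40, interval 0.22 to 0.59). No reads were listed for the yolk receptor gene yl or for the lipophorin receptor gene LpR2. LpR1, the other lipophorin receptor gene, had 24 reads in ethanol heads and 18 in control heads on 2 of its 10 annotated accessions, under the floor. Whether reads shared by isoforms were lost from these genes was not tested.

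Other carriers of lipid showed no common direction. Of 17 genes 11 were measured and 0 called, with intervals above 1 for 4 and below 1 for 3 (median log2 ratio 0.032). The most abundant was Nplp2, annotated as a neuropeptide-like precursor, with 14434 RPKM in ethanol heads and 13619 RPKM in control heads (0.084). The sterol transport gene Npc1a had 131 reads in ethanol heads and 97 in control heads (0.53, interval 0.14 to 0.92). Among the lipocalins, small secreted lipid binding proteins, NLaz had 557 and 482 reads (0.30, 0.12 to 0.48) and Karl 84 and 121 reads (-0.43, -0.85 to -0.020).

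Genes of lipoprotein assembly and secretion had no common direction. Of 8 genes 7 were measured and 0 called, with intervals above 1 for 3 and below 1 for 1 (median log2 ratio 0.20, and 0.052 with a floor of 20 reads). Pdi, a protein disulfide isomerase of the class that pairs with the microsomal triglyceride transfer protein in mammals, had 2232 reads in ethanol heads and 1777 in control heads (0.42, interval 0.33 to 0.51). Tango1, which helps load large cargo at endoplasmic reticulum exit sites, had 117 and 90 reads (0.47, 0.063 to 0.88), and the protease gene Fur1 had 219 and 193 reads (0.28, -0.010 to 0.56).

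The hexamerin Lsp2 has relatives in the other larval serum proteins and the prophenoloxidases, which were listed together with Fbp2. Of these 7 genes 3 were measured and 0 called. Lsp1beta, a larval serum protein gene, was higher after ethanol, with 864 reads or 30.1 RPKM in ethanol heads and 543 reads or 17.7 RPKM in control heads (1.70-fold, log2 0.76, interval 0.61 to 0.92). Lsp2 was lower, so these related storage protein genes differed in direction between the same libraries. The prophenoloxidase genes PPO1 (1164 and 1367 reads, -0.14) and PPO2 (1733 and 2020 reads, -0.13) had intervals below 1. Lsp1alpha, with 1 read in ethanol heads and 4 in control heads, and Lsp1gamma, with 10 and 11, were under the floor.

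Regulators of the yolk protein genes include the sex determination pathway, the ecdysone and juvenile hormone receptors and fat body enhancer factors. Of 20 genes 15 were measured, 0 were called higher and 1 lower (median log2 ratio 0.099), against 1.75% and 0.741% of all measured genes. Intervals lay above 1 for 2 and below 1 for 3. The gene called lower was Aef1, a zinc finger factor that binds a yolk protein gene enhancer. Aef1 had 23 reads in ethanol heads and 59 in control heads (log2 ratio -1.27, interval -2.03 to -0.55). Its call was lost with a pseudocount of 1 RPKM (-0.65) and with a floor of 200 reads. Whether reads shared by isoforms were lost from Aef1 was not tested. The doublesex gene dsx, whose female product activates Yp1 and Yp2, had 70 reads in ethanol heads and 104 in control heads (-0.48, -0.94 to -0.027). The nuclear receptor gene Hnf4 (287 and 209 reads, 0.55, 0.29 to 0.81) had an interval above 1 but did not reach 2-fold. For the nuclear receptor gene usp (1033 and 1029 reads, 0.099, -0.027 to 0.22) the interval included 1.

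**Figure D4:**
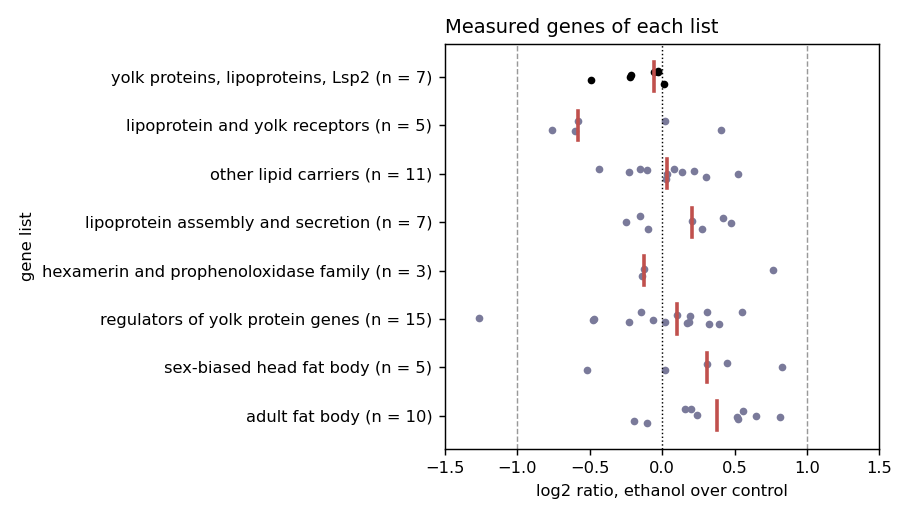
Log2 ratio of ethanol over control for each measured gene (points) of 7 gene lists and of the 7 genes described (black, top row); red bars are medians and dashed lines mark 2-fold. The receptor list has the lowest median (-0.58) and the adult fat body list the highest (0.38); with the length trend removed, the receptor median is -0.052, above the -0.18 of the hexamerin list. 1 gene, Aef1, lies beyond 2-fold.

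Of 12 general markers of adult fat body 10 were measured and 0 called. Intervals lay above 1 for 6 and below 1 for 2 (median log2 ratio 0.38), against 23.9% and 15.0% of all measured genes. The marker Cg had no unique match among gene names and Fatp1 was under the floor, so neither is among the 10. Pepck1, a gluconeogenic enzyme gene, had 648 reads in ethanol heads and 393 in control heads (0.81), and the desaturase gene Desat1 had 5476 and 6277 (-0.10); both are named here after their values were seen. Of the 5 sex-biased genes of the head fat body, all measured and 0 called, 3 had intervals above 1 and 1 below. These were to (takeout, 1930 reads in ethanol heads and 1163 in control heads, 0.82), Cyp4d21 (388 and 304 reads, 0.45) and fit, a female-biased gene (6631 and 5698 reads, 0.31) on the high side, and Obp99b (481 and 735 reads, -0.52) on the low side. The summed level of the general fat body markers, in RPM (reads scaled by the library's total alone), was 2352 in ethanol heads and 2098 in control heads. Most of that difference came from the iron carrier gene Tsf1 (1570 and 1330 RPM), without which the sums were 782 and 768 RPM. The part of these markers in the ratios of the yolk protein genes was not tested.

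Markers of the ovary, the other source of yolk protein transcripts, were near 0 in both libraries except for grk. Of 21 ovary markers 1 was measured, grk, with 474 reads in ethanol heads and 498 in control heads, and together they summed to 45.7 RPM in ethanol heads and 46.5 in control heads, of which grk gave 43.0 and 42.3. That level of grk was above every neuronal marker listed, the highest of which, nSyb, had 32.0 and 32.2 RPM. The eggshell gene Cp19 had 14 and 19 reads, Vm26Ab 1 and 2, and Cp18 0 and 4. Of the other eggshell genes, no reads were listed for dec-1, Vm26Aa, Vm32E, Cp15, Cp16, Cp36 or Cp38. Markers of muscle summed to 1684 RPM in ethanol heads and 2152 in control heads (9 of 9 measured). Most of that difference came from Act79B (815 and 1218 RPM), without which the sums were 868 and 934 RPM. Glial markers summed to 512 and 610 (6 of 7), but to 251 and 222 without Gs2, the glial gene with most reads, and their median log2 ratio was 0.13. Hemocyte markers summed to 479 and 602 (5 of 6), neuronal markers to 63.3 and 72.3 (5 of 8) and gut markers to 90.6 and 101 (3 of 8). The low neuronal sum includes genes with many annotated transcripts: para (60 accessions) and cac (18) had no reads listed, and brp (14) had 2 in ethanol heads and 3 in control heads. Of all protein-coding genes with 10 or more annotated accessions, 7.79% had no listed value, against 33.2% of those with 1; reads lost within listed genes were not tested. Among these lists 1 gene was called, the collagen gene Col4a1 of the hemocyte list, against 2.49% of all 7822 measured genes. A single call among lists of this size says little beside that share. Col4a1 had 51 reads in ethanol heads and 135 in control heads (log2 ratio -1.31). As for Aef1, the call of Col4a1 was lost with the pseudocount (-0.72) and with a floor of 200 reads, and loss of reads shared by isoforms was not tested. The part of the makeup of the heads in the ratios above was not tested.

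**Figure D5:**
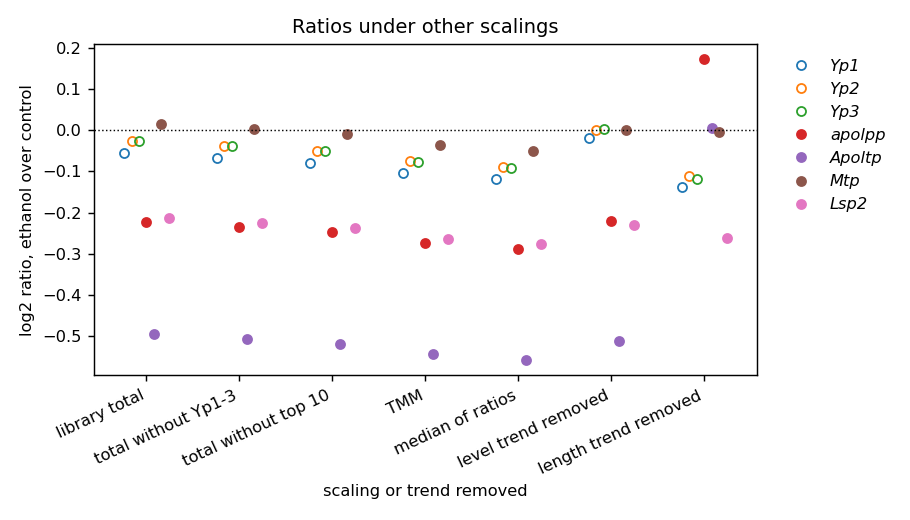
Log2 ratio of ethanol over control for the 7 genes under the library total, 4 other scalings and removal of the trend on level or on transcript length. Apoltp is the lowest under every scaling, and after the length trend is removed apolpp (0.17) is the highest and Lsp2 (-0.26) the lowest.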

How the data were processed

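Per the file headers, the authors deposited for each library a count of uniquely assigned reads per RefSeq accession, the percent of the transcript covered, and RPKM. They also deposited a joint table with the same reads, and with a log2 ratio, p-value and FDR, which was used only to check the counts. Per the submitters' processing notes, reads were placed on build BDGP 5. How reads were aligned, counted and shared among transcripts or genes was not given in the sources used here. Of 15090 accessions, 14521 matched a gene of the Release 6 RefSeq annotation, used for names. The other 569 took 0.577% of ethanol and 0.599% of control reads. Each was kept as a gene of its own in the library totals and in the counts over all genes.

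Reads were summed per gene. With 1 library per group, ratios have Clopper-Pearson intervals, and ratios between genes have intervals of the odds ratio. PCR duplicates are not known, so intervals cover counting error only. Members, gene lists and rules were chosen with earlier results of these data known. All 8 members were named, and of each pathway list the 3 measured genes with the largest absolute log2 ratio and the most abundant one. Alternatives were TMM (edgeR 4.0.16), median-of-ratios (DESeq2 1.42.0), totals without the yolk protein genes or the 10 most abundant genes, summed RPKM, the accession with most reads, a pseudocount of 1 RPKM, lowess trends on length or level (fraction 0.3), other floors, a 1.5-fold threshold and a 99.9% interval. The functions were tested on simulated data. A planned list of genes related to the yolk proteins by sequence was not run. The marker lists held 2 names with no unique match, Cg (adult fat body) and nos (ovary). List sums without their most abundant gene, and the share of genes with no listed value by number of annotated accessions, were added after seeing the data.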

Additional observations from a re-analysis of the deposited data

How the results depend on the processing

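No paired analysis was possible because each group holds 1 library. The log2 ratio of the summed yolk protein genes, -0.039 by library totals, was -0.089 with TMM, -0.10 with median-of-ratios, -0.051 without the yolk protein genes in the total, -0.064 without the 10 most abundant genes, -0.13 with the length trend removed and -0.0076 with the level trend removed. It kept its sign under all of these. The count of members called stayed at 0 under all 14 alternatives, but several of these could not have raised it. Every member with reads lay above all the floors tried, and a wider interval can only remove calls. The other scalings shifted log2 ratios by between -0.064 and -0.012, too little to bring even Apoltp (-0.49), the lowest member, to 2-fold. Over all genes, 137 higher and 58 lower calls became 51 and 9 with the pseudocount. They became 259 and 127 with a floor of 20 reads, 38 and 10 with 200, 347 and 202 with 1 read, and 467 and 224 at 1.5-fold. Removing the length trend gave log2 changes of -0.019 for Yp1 over Yp3, 0.0080 for Yp2 over Yp3, -0.28 for Yp2 over apolpp, 0.17 for apolpp over Apoltp, 0.18 for apolpp over Mtp and 0.43 for apolpp over Lsp2, so the changes of Yp2 over apolpp, apolpp over Mtp and apolpp over Lsp2 had the other sign there. The cause was not tested. Against like-length genes with at least 50 reads or within a factor of 0.9, both chosen after seeing the data, apolpp stayed 0.14 and 0.15 above its class median and Lsp2 0.26 and 0.24 below. Depth does not limit the yolk protein values; the lack of replicates does.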
